A study of Homo sapiens with 6 samples.

Results

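The components of the TGF-beta and BMP signalling pathways were examined in RNA-seq libraries of KGN cell clones that either carry the C134W change in 1 copy of FOXL2 or have had it reverted. The 52 member genes were chosen by name and by textbook role, with no threshold on expression, out of 58336 gene IDs in the deposited tables. They comprise 16 ligands, 12 receptors, 3 co-receptors or pseudoreceptors, 6 signalling SMADs, 2 inhibitory SMADs, 5 secreted antagonists, 4 nuclear or ubiquitin-ligase regulators and the 4 ID target genes. By the receptor-activated SMADs they are known for, 14 were assigned to the TGF-beta branch, 29 to the BMP branch and 9 to both.

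KGN is a cell line from a human ovarian granulosa cell tumour. The WT/C134W libraries come from clones 3.11 (replicate 1) and 44b (replicate 2) and from a further library named 3.11-44b, and the WT/WT libraries from clones 44a (replicate 1) and 4.72 (replicate 2) and from a further library named 4.72-44a. The labels give a CRISPR/Cas9 reversion of C134W as the treatment of the WT/WT samples only, so genotype and editing cannot be told apart, and each genotype rests on 2 clones. RNA extraction followed a transfection by 30 h in all samples, and what was transfected is not given. The comparison asks how gene expression differs with the C134W change present or reverted. The names 3.11-44b and 4.72-44a each join 2 clone names, so these libraries may be mixes. They are called joined libraries here, are shown, and are left out of the test. For 28 of the 40 tested members (70%) the joined WT/C134W value lay between those of clones 3.11 and 44b, and for 27 (67.5%) the joined WT/WT value lay between those of 44a and 4.72, against 49% and 49.3% over all 16416 genes tested.

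TGF-beta family ligands are secreted dimers that bring type I and type II receptor kinases together. TGF-beta and activin receptors phosphorylate SMAD2 and SMAD3, BMP receptors phosphorylate SMAD1, SMAD5 and SMAD9, and either set enters the nucleus with SMAD4. SMAD6 and SMAD7 are inhibitory SMADs induced by the pathway itself, secreted antagonists such as noggin and gremlin trap BMP ligands, and the ID genes are direct BMP targets. In the ovary the family governs follicle growth, through oocyte ligands, activin, inhibin and anti-Mullerian hormone. FOXL2, a forkhead factor of granulosa cells, is known to act together with SMAD3 and SMAD4 on the follistatin gene.

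The summed expected counts were between 35332727 and 42137567 in WT/C134W libraries and between 41923218 and 46613068 in WT/WT libraries. The 50 most abundant genes held 20.5% to 21.47% of the counts in WT/C134W and 25.55% to 27.39% in WT/WT. FOXL2 itself had 5.25, 5.48 and 3.47 TPM in 3.11, 44b and their joined library, against 3.7, 2.36 and 2.17 TPM in 44a, 4.72 and their joined library. These are levels of the gene, and its allele cannot be read from them. Of 8 granulosa markers, FOXL2, NR5A1 and INHBA reached 1 TPM, and FSHR, AMHR2 and WT1 had 0 counts in all 6 libraries. The summed TPM of the granulosa list was 50.21 to 70.5 in WT/C134W and 80.97 to 89.14 in WT/WT. Most of this gap was INHBA, which also stands in the TGF-beta and activin response list below. It had 23.72, 42.51 and 38.55 TPM in WT/C134W, against 62.12, 51.41 and 59.04 TPM in WT/WT. NR5A1 had 21.24, 21.66 and 19.37 TPM, against 22.81, 26.69 and 23.25 TPM. FOXL2 was higher in the single WT/C134W clones than in the single WT/WT clones. All 4 fibroblast markers were detected, and their summed TPM, nearly all of it COL1A1, was 3862 to 4523 in WT/C134W and 6877 to 8746 in WT/WT. They did not share a direction. The log2 fold change (with SE) was -1.16 ± 0.24 for COL1A1, -1.71 ± 1.04 for DCN, -2.83 ± 1.51 for LUM and 0.41 ± 0.34 for PDGFRA. LUM had only 4 counts in 3.11, and COL1A1 also stands in the TGF-beta and activin response list below. The part of these marker levels in the differences below was not tested. In bulk RNA, fewer cells of a type and less RNA per cell cannot be told apart.

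Of the 52 members, 40 had enough counts to be tested and 12 did not. BMP2, BMP5, BMP7, GDF10 and the receptors ACVRL1 and AMHR2 had 0 counts in all 6 libraries, where 3 counts correspond to 0.0644 to 0.0849 CPM. GDF9, BMP6, GDF5, GDF7, CHRD and CHRDL2 never passed 18 counts or 0.47 CPM in a library. At this depth no RNA was detected for AMHR2, the specific receptor of anti-Mullerian hormone, while the hormone's own gene AMH was present at 18.01, 44.39 and 42.42 TPM in the WT/C134W libraries, against 23.86, 20.47 and 22.34 TPM in the WT/WT libraries. On the length-corrected TPM scale, averaged over the 4 single clones, the most abundant members were ID3 (282 TPM), TGFB1 (161), ENG (90.6), SMURF2 (90.3) and ID1 (86.0).

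No member passed the test between genotypes. That test, edgeR's quasi-likelihood test fitted to the 4 single clones, used Benjamini-Hochberg adjustment over all genes and a threshold of 0.05. The same test called 0% of the 16416 genes. At an unadjusted p under 0.05 it gave 7 of 40 members (17.5%), against 1243 of all genes tested (7.57%). With DESeq2 272 of 15349 genes (1.77%) passed, among them TGFB1 and GREM1, and with limma voom 0 genes passed. In edgeR on all 6 libraries 511 of 16046 genes (3.18%) passed, among them TGFB1, SMAD7 and GREM1, but the joined libraries are then counted as separate replicates. Without the low-count filter 664 of 24301 genes (2.73%) passed, among them 6 members, and with a block for the clone name stem 5 genes (0.0305%) and 0 members. In 10 members (25%) both WT/C134W clones lay below both WT/WT clones, and in 4 (10%) both lay above, against 19.7% and 19.9% of all genes tested. Over all 6 libraries 10 members lay below without overlap and 2 above, against 13.9% and 12% of all genes. Scaled by library totals alone, 7 members lay below and 9 above, against 8.95% and 38.8% of all genes. The differences below are therefore given as values. Labels do not say whether libraries came from separate cultures, so p-values measure the spread between these 4 libraries.

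**Figure D1:**
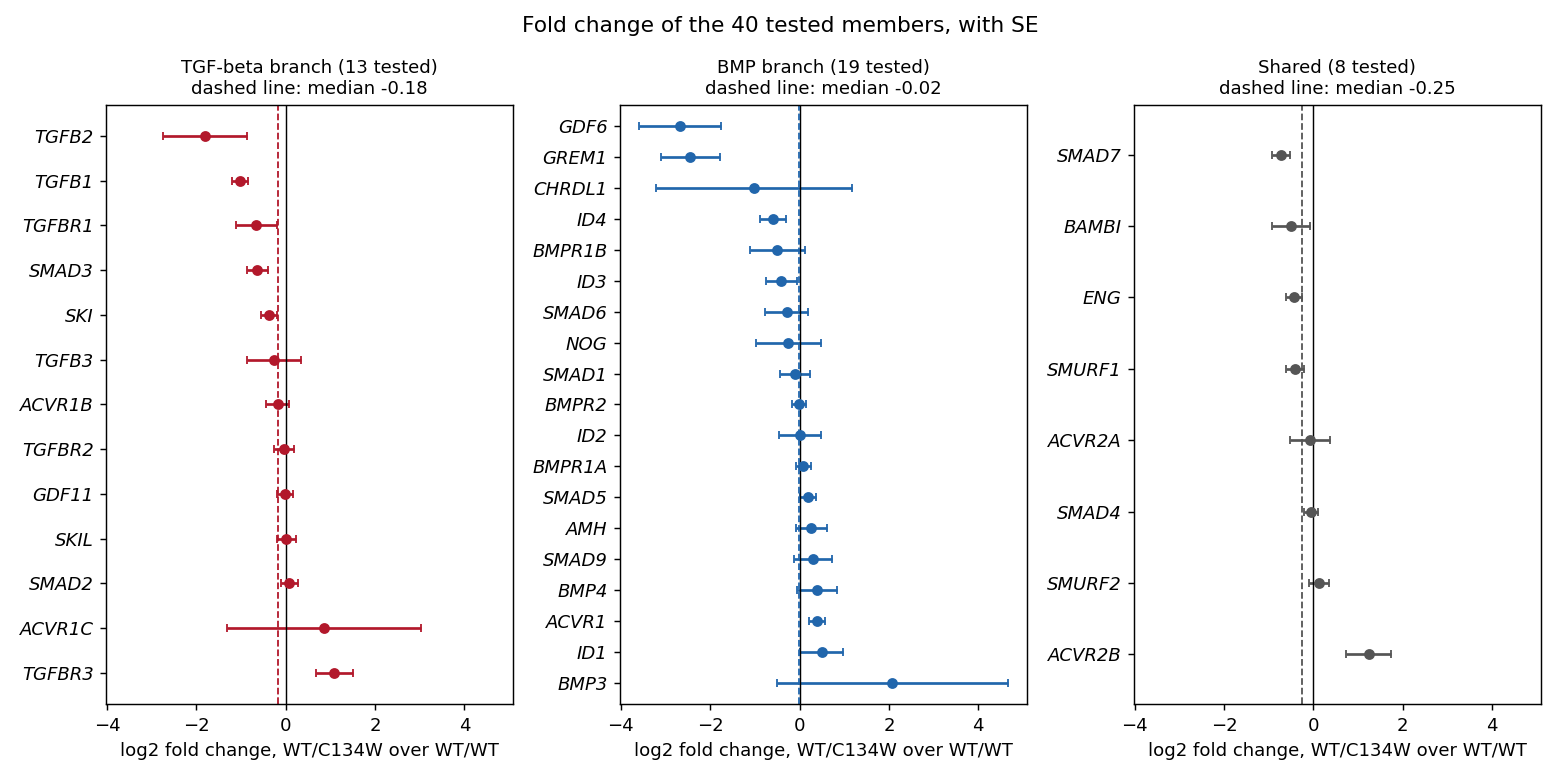
Log2 ratio of WT/C134W to WT/WT for the 40 tested members in the 4 single clones, sorted within each branch, with bars of 1 SE. Dashed lines are branch medians, at -0.18 for the TGF-beta branch, -0.02 for the BMP branch and -0.25 for shared members; GDF6, GREM1 and TGFB2 lie farthest to the left.

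Among TGF-beta branch ligands, TGFB1 dominated. TGFB1 (ENSG00000105329, chr19:41301587-41353911, minus strand, GRCh38 by GENCODE) had 167, 197 and 178 CPM in 3.11, 44b and their joined library, against 391, 349 and 335 CPM in 44a, 4.72 and their joined library. Every WT/C134W library was below every WT/WT library. The clones averaged 182 ± 21.3 CPM in WT/C134W and 370 ± 29.3 CPM in WT/WT (SD, n = 2 each). The log2 fold change was -1.03 ± 0.17 (SE) with an edgeR adjusted p of 0.480, and it stayed between -1.16 and -0.91 when any 1 clone was left out. DESeq2 gave an adjusted p of 5.54e-05, and over all 15 alternatives the adjusted p ran from 5.54e-05 to 0.999. The annotation places HNRNPUL1, at a mean of 300.3 CPM, on the opposite strand across part of TGFB1, and the strand setting of the counting is not given, so some reads could belong to either gene.

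The TGFB1 promoter window, from 250 bases before to 50 bases after the start in RefSeq (GRCh38.p14, chr19:41353873-41354172, minus strand, written 5′ to 3′ along the gene), is shown because this ligand had the smallest p of the members. It was searched on both strands for GGCGCC, a GC-rich motif bound by SMAD1 and SMAD5, for GTCTAGAC and CAGACA, which SMAD3 and SMAD4 bind, and for TGTTTAC, a forkhead motif. It holds none of them, so no letters are in capitals. No match says only that these letters are not in this window.
TGFB1: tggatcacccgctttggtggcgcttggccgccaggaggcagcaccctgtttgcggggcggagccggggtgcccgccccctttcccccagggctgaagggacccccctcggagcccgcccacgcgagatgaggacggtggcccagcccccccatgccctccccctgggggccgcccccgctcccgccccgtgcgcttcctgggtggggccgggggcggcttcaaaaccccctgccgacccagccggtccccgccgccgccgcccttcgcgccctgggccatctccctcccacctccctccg

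TGFB2 differed more, and less evenly. It had 3.19, 17.3 and 13.7 CPM in 3.11, 44b and their joined library, against 49.1, 22.7 and 32.0 CPM in 44a, 4.72 and their joined library. The genotypes did not overlap, but 44b was 5.42-fold above 3.11, and 44a was 2.16-fold above 4.72. The log2 fold change was -1.81 ± 0.94 (edgeR adjusted p = 0.755), -1.05 without 3.11 and -3.50 without 44b. TGFB3 was low, with 0.887 to 2.25 CPM in WT/C134W and 2.08, 2.12 and 2.13 CPM in WT/WT, and the clones of the genotypes overlapped. GDF11, a ligand of activin receptors, was level at 30.5, 36.4 and 31.2 CPM in WT/C134W and 31.6, 36.2 and 32.7 CPM in WT/WT, a log2 fold change of -0.02 ± 0.19. The 4 tested TGF-beta branch ligands had log2 fold changes below 0, with a median of -0.64, but for GDF11 and TGFB3 the sign depended on the setting. GDF11 was at 0.21 with library totals alone, and TGFB3 at 0.53 on log2(TPM + 1) and 0.10 without 3.11. Their summed level, mostly TGFB1, was 119.4, 139.1 and 128.4 TPM in WT/C134W, against 267.6, 212.7 and 214.8 TPM in WT/WT.

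The BMP ligands did not share a direction. BMP4 was the most abundant BMP ligand, with 84.87, 40.24 and 48.66 TPM in 3.11, 44b and their joined library, against 56.16, 31.19 and 31.4 TPM in 44a, 4.72 and their joined library. Clone 3.11 was the highest and 4.72 the lowest, but 44a lay above 44b, so the genotypes overlapped, and the log2 fold change was 0.39 ± 0.45 (edgeR adjusted p = 0.911). GDF6, a ligand known for joint and eye development, had 0.266, 1.85 and 0.626 CPM in the WT/C134W libraries, against 7.89, 5.79 and 6.97 CPM in the WT/WT libraries. No WT/C134W library came near a WT/WT library. These values rest on 11, 84 and 24 counts in WT/C134W and 348, 235 and 272 counts in WT/WT. The log2 fold change was -2.68 ± 0.92 (edgeR adjusted p = 0.647), -1.88 without 3.11 and -4.68 without 44b. BMP3, an atypical ligand that opposes BMP signalling, had 61, 0 and 9 counts in 3.11, 44b and their joined library and 0, 14 and 0 counts in 44a, 4.72 and their joined library, so its log2 fold change of 2.08 ± 2.59 rests on clone 3.11. AMH had a log2 fold change of 0.26 ± 0.35, with clone 44b highest. The summed level of the 10 BMP branch ligands was 103.4, 85.43 and 91.72 TPM in WT/C134W, against 83.21, 54.07 and 56.57 TPM in WT/WT, and the WT/C134W libraries were all above the WT/WT libraries on that scale. Nearly all of this sum was BMP4 and AMH. The margin between 44b and 44a was small and rested on AMH, at 44.39 TPM in 44b and 23.86 TPM in 44a. For BMP4 alone 44a was above 44b. TPM also leaned to WT/C134W over the 16416 genes tested, with a median log2 fold change of 0.131 on log2(TPM + 1) without a filter. The share of all genes without overlap on that scale was not taken.

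Of the 10 tested receptor genes, 0 lay lower and 3 (30%) higher in WT/C134W without overlap between the single clones, against 19.7% and 19.9% of all genes. TGFBR2, the type II receptor for TGF-beta and the most abundant receptor, had 214, 182 and 206 CPM in WT/C134W and 166, 240 and 208 CPM in WT/WT. The genotypes overlapped fully, and the log2 fold change was -0.04 ± 0.22 (edgeR adjusted p = 0.996). TGFBR1, its type I partner, had 28.4, 20.8 and 21.9 CPM in WT/C134W and 55.4, 22.3 and 30.9 CPM in WT/WT. The single clone 44a stood above the rest, and the log2 fold change of -0.66 ± 0.46 became 0.12 without it. The activin type I receptor ACVR1B (log2 fold change -0.18), the type II receptor ACVR2A (-0.08) and the very low ACVR1C (0.86 ± 2.17) overlapped between genotypes.

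ACVR2B, a type II receptor that binds activins and BMPs, was low, with 4.79, 3.20 and 3.08 CPM in WT/C134W, against 1.68, 1.70 and 1.92 CPM in WT/WT. All WT/C134W libraries were above all WT/WT libraries. This is a log2 fold change of 1.24 ± 0.50 (edgeR adjusted p = 0.663). ACVR1, a BMP type I receptor, had 40.2, 33.9 and 32.8 CPM in WT/C134W and 28.8, 27.8 and 34.3 CPM in WT/WT. The single clones did not overlap but the joined libraries did, and the log2 fold change was 0.39 ± 0.18 (edgeR adjusted p = 0.692). BMPR1A had 29.2, 30.0 and 30.0 CPM in WT/C134W and 28.2, 27.5 and 29.7 CPM in WT/WT. Its log2 fold change of 0.09 ± 0.16 is small although the single clones did not overlap, and pseudogene copies of it are annotated. BMPR2, the BMP type II receptor, was level at 97.3, 92.7 and 92.3 CPM in WT/C134W and 102, 89.9 and 96.9 CPM in WT/WT, while BMPR1B, at no more than 1.15 TPM, had a log2 fold change of -0.50 ± 0.61. In summed TPM the 6 BMP branch receptors had 62.75, 61.21 and 53.17 in WT/C134W, against 46.2, 44.73 and 47.88 in WT/WT. In log2 fold change of CPM, the median of the 4 tested was 0.04, with 2 above and 2 below 0. On log2(TPM + 1) without a filter the median of all genes tested was 0.131. The RSEM length of BMPR1A was 3611, 2764 and 3714 in WT/C134W, against 3888, 3834 and 4213 in WT/WT. BMPR2, level in CPM, had 24.43, 22.53 and 21.13 TPM in WT/C134W, against 19.29, 18.62 and 19.04 TPM in WT/WT. The part of length in the summed TPM was not tested.

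The co-receptors did not share a direction. TGFBR3, or betaglycan, which presents TGF-beta to its receptors and serves as co-receptor for inhibin, had 11.5, 6.20 and 6.60 CPM in WT/C134W, against 4.33, 3.99 and 3.59 CPM in WT/WT. All WT/C134W libraries were above all WT/WT libraries, and clone 3.11 was the highest. Its log2 fold change was 1.08 ± 0.42 (edgeR adjusted p = 0.658), and 0.58 without 3.11. ENG, or endoglin, a co-receptor best known in endothelial cells, had 141, 170 and 145 CPM in WT/C134W, against 202, 217 and 198 CPM in WT/WT. The libraries did not overlap, and the log2 fold change was -0.44 ± 0.17 (edgeR adjusted p = 0.658). Of the 4 endothelial markers 2, TEK and PECAM1, reached 1 TPM in a library. TEK had 3.85, 0.96 and 2.03 TPM in WT/C134W, against 0.43, 1.67 and 1.06 TPM in WT/WT. PECAM1 had at most 1.9 TPM, VWF at most 0.13 TPM, and CDH5 was at 0 counts in every library. The summed TPM of these markers was 1.47 to 4.86 in WT/C134W and 0.59 to 2.96 in WT/WT. BAMBI, a pseudoreceptor without a kinase domain, had 8.54, 19.5 and 17.7 CPM in WT/C134W and 17.1, 22.5 and 24.1 CPM in WT/WT, with 44b above 44a.

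Of the 6 signalling SMADs 1 (16.7%), SMAD3, lay lower in WT/C134W without overlap between the single clones and 0 higher, against 19.7% and 19.9% of all genes. With library totals alone 1 lay lower and 2 higher, against 8.95% and 38.8% of all genes. SMAD3, which carries the TGF-beta and activin signal to DNA, had 118, 77.3 and 97.6 CPM in WT/C134W, against 137, 165 and 158 CPM in WT/WT. All WT/C134W libraries were below all WT/WT libraries. For SMAD3 the log2 fold change was -0.63 ± 0.24 (edgeR adjusted p = 0.658), and -0.37 without 44b. SMAD2, its partner, had 64.9, 49.3 and 50.3 CPM in WT/C134W and 52.4, 55.3 and 53.6 CPM in WT/WT, with a log2 fold change of 0.08 ± 0.19. SMAD4, the common partner and the most abundant signalling SMAD in TPM, had 58.5, 51.5 and 58.9 CPM in WT/C134W and 60.4, 53.7 and 56.8 CPM in WT/WT, with a log2 fold change of -0.05 ± 0.16. The BMP SMADs overlapped between genotypes, with log2 fold changes of -0.11 ± 0.33 for SMAD1, 0.19 ± 0.18 for SMAD5 and 0.30 ± 0.43 for SMAD9.

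SMAD7, the inhibitory SMAD that recruits SMURF ubiquitin ligases to the receptors, had 32.7, 43.8 and 38.0 CPM in WT/C134W, against 66.0, 61.0 and 56.0 CPM in WT/WT. All WT/C134W libraries were below all WT/WT libraries. For SMAD7 the log2 fold change was -0.73 ± 0.20 (edgeR adjusted p = 0.593), and it passed the adjusted threshold in edgeR on all 6 libraries and without the low-count filter. Its adjusted p over 15 alternatives ran from 0.0261 to 0.999. SMAD6, the inhibitory SMAD that acts mainly on BMP signals, behaved differently. It had 22.5, 32.8 and 29.9 CPM in 3.11, 44b and their joined library, against 19.0, 48.5 and 35.9 CPM in 44a, 4.72 and their joined library. The lowest and the highest values both belong to WT/WT clones, and the log2 fold change was -0.29 ± 0.48.

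Of the 76 RefSeq promoter windows found for 44 members, the SMAD6 window was the only one with GTCTAGAC, which occurs in 0.202% of 35116 promoter windows of the same length. The window is chr15:66701986-66702285 on the plus strand of GRCh38.p14, and the capitals mark the motif, which reads the same on both strands. GGCGCC, also the same on both strands, occurred in 21 member windows (27.6%) and 19.2% of all windows, and CAGACA or its complement TGTCTG in 12 (15.8%) and 16.9%. TGTTTAC or GTAAACA occurred in 0 member windows and 3.42% of all windows. A match is a description of letters and not a binding site.
SMAD6: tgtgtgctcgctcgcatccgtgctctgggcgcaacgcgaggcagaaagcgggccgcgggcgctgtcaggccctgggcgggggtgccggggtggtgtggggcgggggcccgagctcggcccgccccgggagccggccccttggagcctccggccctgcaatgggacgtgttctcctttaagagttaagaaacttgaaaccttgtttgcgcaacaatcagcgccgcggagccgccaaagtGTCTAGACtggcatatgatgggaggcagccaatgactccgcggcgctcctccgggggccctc

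All 3 tested secreted BMP antagonists had log2 fold changes below 0, but only GREM1 showed no overlap between the single clones. This is 33.3% on the lower side, against 19.7% of all genes. GREM1, or gremlin 1, which binds BMP2, BMP4 and BMP7, had 2.85, 9.57 and 7.02 CPM in WT/C134W, against 24.7, 42.9 and 42.3 CPM in WT/WT. The highest WT/C134W library was below the lowest WT/WT library. The clones averaged 6.21 ± 4.75 CPM in WT/C134W and 33.8 ± 12.8 CPM in WT/WT (SD, n = 2 each). This gave a log2 fold change of -2.44 ± 0.66 (edgeR adjusted p = 0.625). The adjusted p was 0.00165 in DESeq2, 0.470 in limma voom and 2.05e-15 in edgeR without the low-count filter. Without that filter CHRDL1 also passed (edgeR adjusted p = 0.00012), although its WT/C134W clones differed 42.4-fold. A small p under that setting therefore need not mean that clones of a genotype agree. Leaving out 3.11 gave -1.82 and leaving out 44b gave -3.58. Of its known partners, BMP2 and BMP7 were at 0 counts and BMP4 was present.

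One of the 2 GREM1 promoter windows in RefSeq, chr15:32717754-32718053 on the plus strand of GRCh38.p14, is shown because GREM1 had the largest difference among the antagonists. The capitals mark CAGACA once and GGCGCC in 2 places. The other GREM1 window, not shown, held none of the motifs searched for.
GREM1: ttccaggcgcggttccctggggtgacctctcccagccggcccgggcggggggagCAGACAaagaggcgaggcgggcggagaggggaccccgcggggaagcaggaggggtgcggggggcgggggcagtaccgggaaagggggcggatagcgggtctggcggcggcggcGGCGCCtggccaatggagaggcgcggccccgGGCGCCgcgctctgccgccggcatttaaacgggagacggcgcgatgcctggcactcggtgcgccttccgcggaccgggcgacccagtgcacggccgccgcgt

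CHRDL1, or chordin-like 1, an antagonist of BMP4, was the most abundant antagonist and differed mainly between clones. It had 88.9, 2.10 and 27.9 CPM in 3.11, 44b and their joined library, against 10.3, 173 and 131 CPM in 44a, 4.72 and their joined library. Within WT/C134W clone 3.11 was 42.4-fold above 44b, and within WT/WT clone 4.72 was 16.7-fold above 44a. The log2 fold change of -1.02 ± 2.19 (edgeR adjusted p = 0.972) moved to 2.13 without 4.72 and -5.45 without 3.11. NOG, or noggin, had 3.05, 13.6 and 10.3 CPM in WT/C134W and 12.3, 7.51 and 10.1 CPM in WT/WT. Clone 3.11 stood below the others, and the log2 fold change of -0.25 ± 0.73 became 0.46 without it. The summed level of the 5 antagonists, mostly CHRDL1, was 57.79, 16.66 and 28.19 TPM in WT/C134W, against 26.59, 115.7 and 98.76 TPM in WT/WT.

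**Figure D2:**
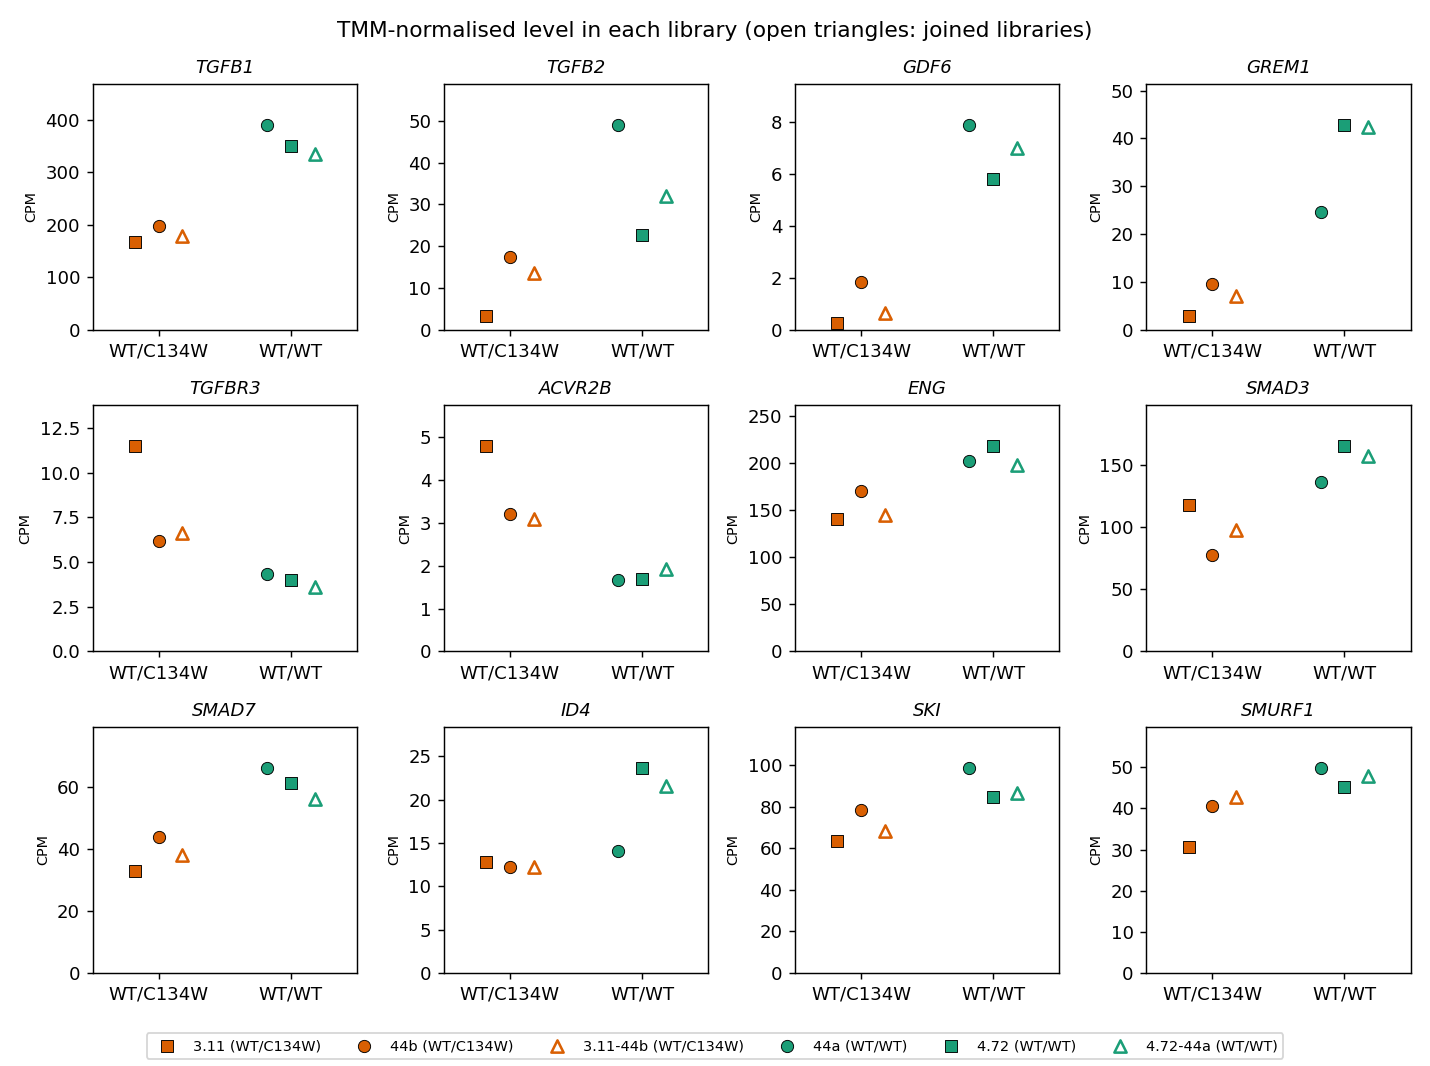
TMM-normalised CPM in each library (linear axes from 0) of the 12 members whose genotypes did not overlap over all 6 libraries; filled symbols are single clones and open triangles joined libraries, with WT/C134W on the left and WT/WT on the right. TGFBR3 and ACVR2B are higher in WT/C134W and the other 10 lower, with the clones of WT/C134W far apart in TGFB2, GDF6 and GREM1.

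Among the nuclear and ubiquitin-ligase regulators, SKI, a corepressor that binds SMAD complexes, had 63.3, 78.4 and 68.3 CPM in WT/C134W, against 98.7, 84.6 and 86.7 CPM in WT/WT. Its libraries did not overlap, and the log2 fold change was -0.37 ± 0.18 (edgeR adjusted p = 0.711). SMURF1, a ubiquitin ligase for SMADs and receptors, had 30.7, 40.5 and 42.9 CPM in WT/C134W, against 49.8, 45.3 and 47.8 CPM in WT/WT. Its log2 fold change was -0.42 ± 0.20 (edgeR adjusted p = 0.702), and TRRAP, at a mean of 76.08 CPM, overlaps it on the opposite strand. SMURF2, its relative and more abundant, had 177, 180 and 185 CPM in WT/C134W and 132, 196 and 186 CPM in WT/WT, with a log2 fold change of 0.12 ± 0.22. SKIL, a corepressor related to SKI, had a log2 fold change of 0.02 ± 0.21.

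The ID genes encode inhibitors of basic helix-loop-helix factors, and ID1, ID2 and ID3 differed more between clones of a genotype than between the genotypes' means. ID1 had 38.4, 80.6 and 66.9 CPM in 3.11, 44b and their joined library, against 28.5, 55.7 and 48.0 CPM in 44a, 4.72 and their joined library. ID3, the most abundant member, had 120, 212 and 190 CPM in WT/C134W and 173, 268 and 219 CPM in WT/WT. ID2 had 16.7, 33.6 and 35.1 CPM in WT/C134W and 16.7, 33.3 and 25.2 CPM in WT/WT. In all 3 genes clone 44b was above 3.11, by 2.10-fold for ID1, 2.01-fold for ID2 and 1.76-fold for ID3. Clone 4.72 was likewise above 44a, by 1.96-fold for ID1, 1.99-fold for ID2 and 1.55-fold for ID3. Between genotypes the log2 fold changes were 0.50 ± 0.48 for ID1, 0.01 ± 0.47 for ID2 and -0.41 ± 0.35 for ID3, and the clones overlapped. ID4 alone of the 4 ID genes did not overlap (25% on the lower side, against 19.7% of all genes). It had 12.8, 12.2 and 12.2 CPM in WT/C134W, against 14.1, 23.7 and 21.6 CPM in WT/WT. Its log2 fold change was -0.60 ± 0.30 (edgeR adjusted p = 0.720), and -0.18 without 4.72. The summed ID level was 301.6, 539.8 and 491.4 TPM in WT/C134W and 317.7, 528.4 and 440.4 TPM in WT/WT.

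SMAD6, another BMP target, GREM1 and BAMBI were also higher in 44b than in 3.11 and in 4.72 than in 44a. BMP4 ran the other way, at 0.448-fold in 44b relative to 3.11 and 0.614-fold in 4.72 relative to 44a. So did TGFBR1 of the TGF-beta branch, at 0.734-fold and 0.402-fold. These members are examples, others ran either way, and no share over all genes was taken. With 1 library per clone these differences within a genotype have no replicate check.

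**Figure D3:**
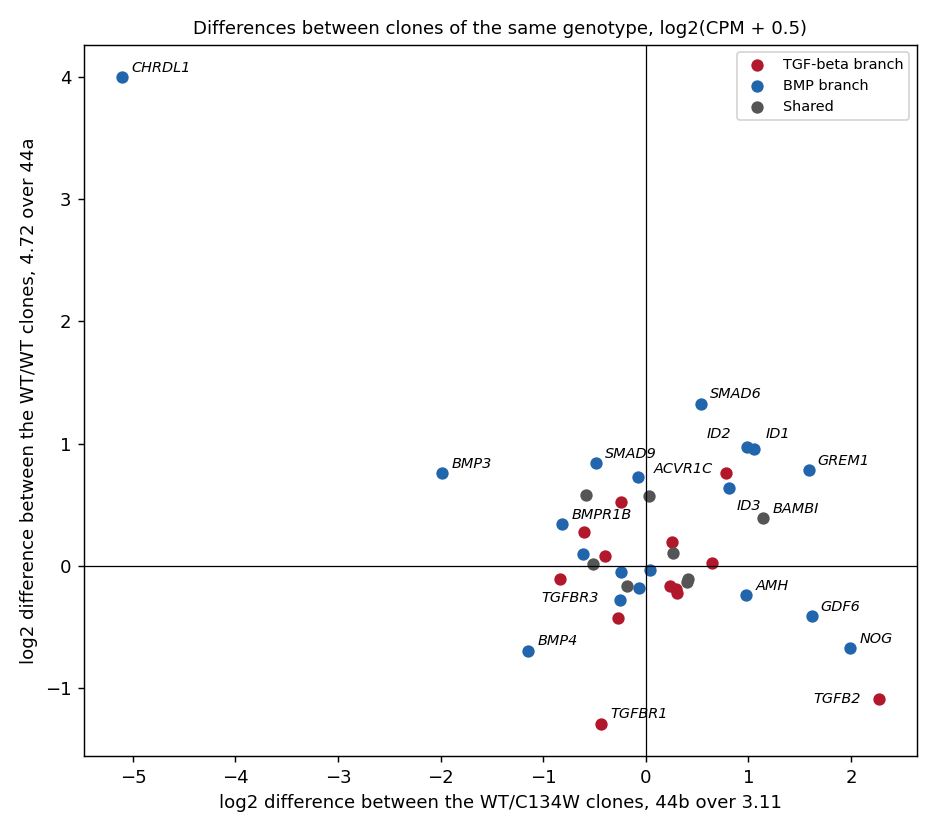
Difference in log2(CPM + 0.5) between the 2 single clones of WT/C134W (x axis, 44b over 3.11) and of WT/WT (y axis, 4.72 over 44a), 1 point per tested member, coloured by branch. ID1, ID2, ID3, SMAD6 and GREM1 lie above 0 on both axes and BMP4 below 0 on both, while CHRDL1 lies far out with opposite signs.

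The branches were also set beside each other. The 13 tested TGF-beta branch members had 4 log2 fold changes above and 9 below 0, with a median of -0.18 and a range from -1.81 to 1.08. The 19 tested BMP branch members had 9 above and 10 below, with a median of -0.02 and a range from -2.68 to 2.08. The 8 tested shared members had 2 above and 6 below, with a median of -0.25, and all 16416 genes tested had a median of 0.005. The difference of the branch medians was -0.16, against an SD of 0.208 for this difference between clones of the same genotype, and it ran from -0.32 without 4.72 to -0.05 without 44a. It was -0.002 without the low-count filter. The TGF-beta median itself was -0.37 without 44b. Counting only ligands, receptors and signalling SMADs, the medians were -0.22 for 10 TGF-beta genes and 0.19 for 11 BMP genes. No test was made of this difference. Scaled by library totals alone, the median of all genes was 0.23 in place of 0.005, 18 of 40 members were then below 0 in place of 25, and 7 members (GDF11, TGFBR2, ACVR1B, ACVR2A, BMPR2, SMAD1 and SMAD4) changed sign.

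**Figure D4:**
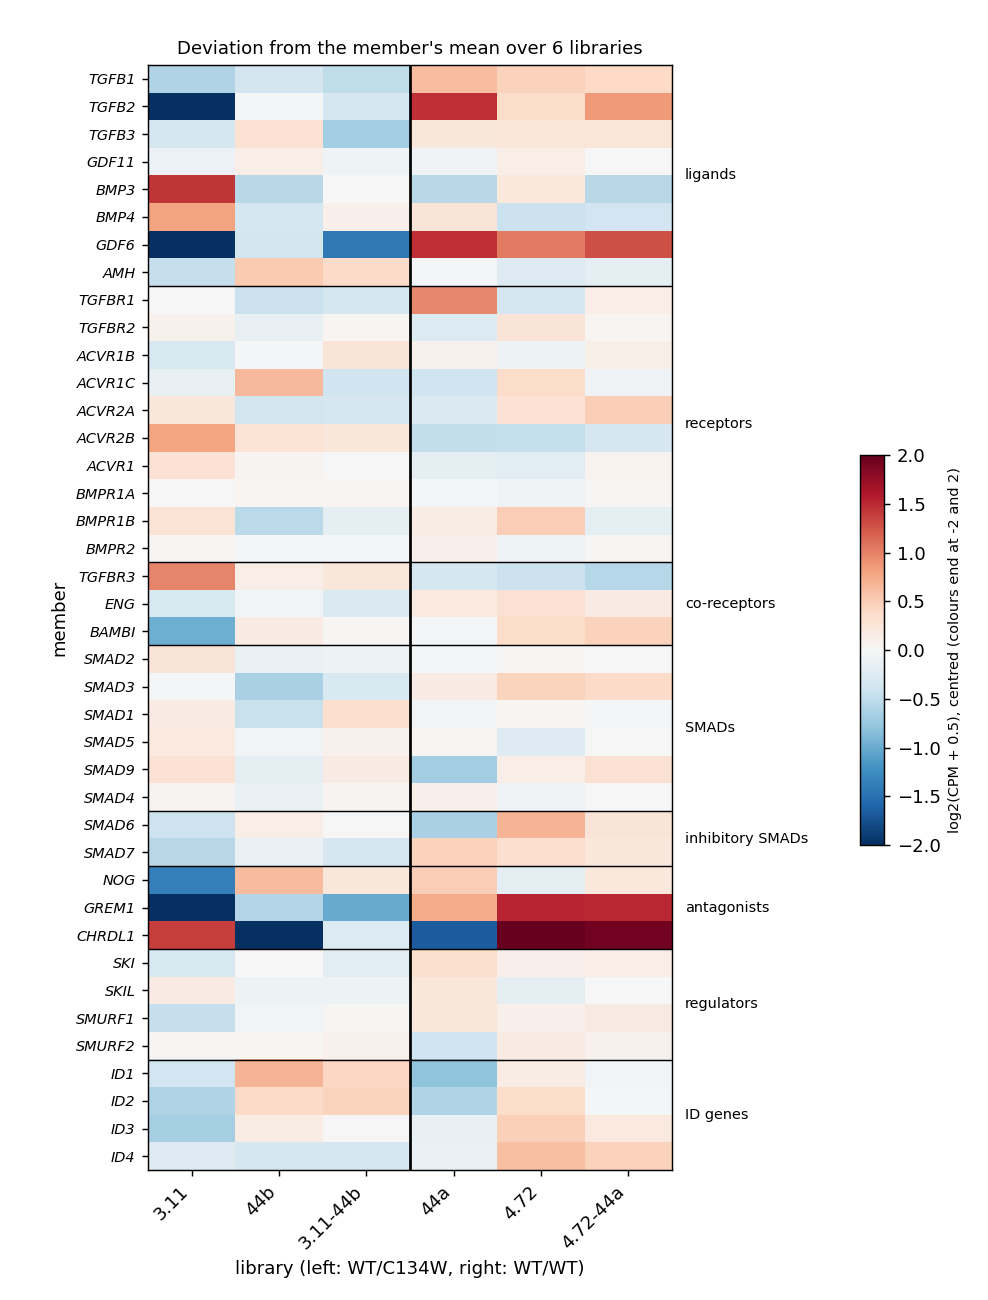
Deviation of log2(CPM + 0.5) from each member's mean over the 6 libraries, with members in rows by role, WT/C134W libraries left of the black line and WT/WT libraries right of it; colours end at -2 and 2. The rows of TGFB1, GDF6, SMAD7 and GREM1 change colour at the line, whereas CHRDL1, ID1, ID2 and ID3 change between clones of 1 genotype.

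Beyond the members, 6 lists of further pathway genes were read from the same fit, in which none of their genes was called. Of the 16 tested of 19 genes of the latent complex and its activation, 15 had a log2 fold change below 0, with a median of -0.51, and 10 did not overlap, all lower in WT/C134W (62.5%, against 19.7% of all genes). With library totals alone 12 were below 0, and 7 lay below and 1 above without overlap, against 8.95% and 38.8% of all genes. This list was chosen with earlier results of these data known, and it shares LTBP2 and THBS1 with the response list below. Its direction is therefore no independent evidence. ITGAV, the integrin subunit that helps release TGF-beta from its latent form, had 219, 228 and 232 CPM in WT/C134W, against 499.9, 515 and 545 CPM in WT/WT, a log2 fold change of -1.19 ± 0.15 (SE) that passed in DESeq2 and not in edgeR. THBS1 (-1.41 ± 0.39), an activator of latent TGF-beta, BMP1 (-1.13 ± 0.30), a protease that cleaves chordin, and FURIN (-0.62 ± 0.16), the convertase that cuts ligand precursors, also had log2 fold changes below 0. DESeq2 called 3 genes of this list, against 1.77% of all genes.

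In the list of TGF-beta and activin response genes, 25 of 29 tested were below 0, with a median of -0.83, and 21 did not overlap on the lower side (72.4%, against 19.7% of all genes) and 1 on the higher. The direction of this list was known when it was chosen and is no independent evidence. DESeq2 called 8 of them, against 1.77% of all genes, and edgeR 0. JUNB, an immediate-early transcription factor, had a log2 fold change of -1.89 ± 0.30, LMCD1 of -2.05 ± 0.35, the collagen gene COL1A1 of -1.16 ± 0.24 and HMOX1, or heme oxygenase 1, of -0.79 ± 0.17. Of the BMP response list, 9 of 15 tested genes were below 0, with a median of -0.14, and 2 did not overlap on the lower side (13.3%) and 3 on the higher (20%), against 19.7% and 19.9% of all genes. With library totals alone 7 of the 15 were below 0 and the median turned to 0.092. HEY1, a repressor shared with Notch signalling, had 1.96, 4.59 and 4.36 CPM in WT/C134W, against 0.295, 0.838 and 0.615 CPM in WT/WT, a log2 fold change of 2.53 ± 0.83. JAG1, a Notch ligand, was at -0.97 ± 0.33, MSX1 at -0.68 ± 0.39 and DLX5 at 0.64 ± 0.40, of which the last 2 are homeobox factors.

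Of 15 other extracellular BMP regulators 8 were tested, 5 of them below 0, with a median of -0.25, or -0.03 with library totals alone. Named among them were CRIM1 (-0.62 ± 0.32), BMPER (0.55 ± 0.50) and RGMB (0.47 ± 0.29), given as log2 fold changes. The 23 tested receptor and SMAD regulators divided into 11 above and 12 below 0, with a median of -0.03. With library totals alone 7 were below 0, and the median was 0.19, against 0.23 for all genes. Under that scaling 12 lay above and 1 below without overlap, against 38.8% and 8.95% of all genes. Named among the regulators were NEDD4L (0.71 ± 0.21), CTDSP1 (-0.55 ± 0.16), USP11 (-0.54 ± 0.19) and TRIM33 (0.46 ± 0.18). Of 12 other ligands only GDF1 (1.36 ± 1.71) and GDF15 (0.96 ± 0.68) were tested. LTBP2, PMEPA1 and THBS1 stand in 2 of the lists each.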

How the data were processed

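RNA-seq gene tables of 6 KGN libraries, 3 per genotype by the genotype labels, were used. Per the file headers, the deposited tables give RSEM's expected count of each gene, an unscaled estimate, together with TPM, scaled by the authors for length and to a common sum, and an effective length that RSEM derives for each library. FPKM was not used. Listed in the submitters' processing notes are RSEM 1.3.1, STAR 2.7.6a and, with no role, Picard 2.8.1, DESeq2 1.26.0 and R 3.6.3, beside a mouse build, GRCm38, although the gene IDs are human. The human build is, like the strand setting, not given in the sources used here. Of the members, 24 overlap a gene on the opposite strand and 3 (BMP6, BMPR1A and SMURF2) have named pseudogene copies, so their counts are uncertain, and for 13 of 40 tested members the RSEM length differed at least 1.5-fold between libraries, which moves TPM apart from CPM.

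Symbols and coordinates came from GENCODE 29 (GRCh38), with 58216 of 58336 IDs found, and promoter windows from RefSeq. Expected counts were rounded. The 4 single-clone libraries were filtered with filterByExpr, scaled by TMM and fitted with edgeR 4.0.16 (robust glmQLFit, glmQLFTest) in R 4.3.3, with Benjamini-Hochberg adjusted p-values over all genes and a threshold of 0.05. Log2 fold changes are WT/C134W over WT/WT, the SE is the log2 fold change's size over the square root of the F value, and CPM is TMM-normalised over the 6 libraries. On simulated counts for this comparison, over 15561 genes and 3 draws, the test recovered 70% of 4-fold and 88% of 8-fold changes. The changed genes all had a mean of at least 1 CPM. The simulation used the fit's dispersions and left out the further gene-by-gene spread that the quasi-likelihood test estimates. These rates therefore do not give the test's power on the real clones. Counting floors cover counting error only.

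Members and lists were chosen with earlier results of these data known, so no p over a list is given. Per-library values are given for members without overlap between the single clones and a mean of at least 1 CPM, with an unadjusted p under 0.05, most abundant in their role, or 4-fold apart between same-genotype clones of which one reaches 1 CPM, which names 21 of 40. The other 19 had log2 fold changes from -0.66 to 0.86 and adjusted p of at least 0.820, and those shown with values were chosen after they were seen. Up to 4 genes per list were named, by smallest p, and 1 gene that this rule takes is not reported here. Alternatives were DESeq2 1.42.0, limma 3.58.1 voom, median-ratio and library-total scaling, no filter, a filter of 10 CPM in 2 libraries, 6 libraries, each clone left out, a replicate block, and limma on log2(TPM + 1) and log2(TPM + 0.1).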

Additional observations from a re-analysis of the deposited data

How the results depend on the processing

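The main test called 0 genes, and leaving out any 1 clone also gave 0 genes and 0 members. DESeq2 called 272 genes and 2 members, no low-count filter 664 and 6 (TGFB1, TGFB2, GDF6, SMAD7, GREM1 and CHRDL1), all 6 libraries 511 and 3, and limma on log2(TPM + 0.1) 1 gene and no member. A replicate block pairing 44a with 44b and 4.72 with 3.11 called 5 genes and 0 members. Labels do not state this pairing, and with only 2 pairs the deviations of 44a and 44b from their group means correlated at 0.24 across 16416 genes.

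Members without overlap on the higher side numbered 4 in the main comparison, 9 with library totals alone, 2 with the 10 CPM filter, 2 with all 6 libraries, 8 on log2(TPM + 1), 8 on log2(TPM + 0.1) and 9 on TPM without a filter. Of all genes, 19.9% were on that side in the main comparison, 38.8% with library totals alone and 12% with all 6 libraries. This share was not taken for the 10 CPM and TPM settings, and the median of all genes was 0.145 on log2(TPM + 1). The counts under those settings are therefore no trait of the members. Leaving out clones gave 15 to 20 members on the lower side (20 without 44a, 17 without 3.11, 18 without 44b) and 8 to 11 on the higher side (8 without 44a, 10 without 4.72, 11 without 3.11, 10 without 44b), while 31.7% to 37.6% of all genes were then on the lower side and 30.6% to 37.7% on the higher, since a lone clone overlaps less often. The TGF-beta branch median of -0.18 moved to 0.043 with library totals alone, -0.26 with the 10 CPM filter, 0.022 on log2(TPM + 1), 0.018 on log2(TPM + 0.1), 0.10 on TPM without a filter, and -0.37 to -0.13 with clones left out. The BMP branch median of -0.02 moved to 0.21 with library totals alone, -0.18 without the low-count filter, 0.14 on log2(TPM + 0.1), 0.19 for core genes, and -0.10 to 0.07 with clones left out. The difference of the medians, -0.16 in the main comparison, was -0.41 for core genes, -0.27 with the 10 CPM filter or all 6 libraries, -0.002 without the low-count filter, 0.020 on log2(TPM + 1) without a filter, and -0.32 to -0.05 with clones left out.

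Over 321 values for 22 named genes, 294 kept direction and side of the threshold, 11 passed it and 16 reversed. TGFBR2 reversed to 0.20 with library totals, 0.14 on log2(TPM + 1), 0.15 on log2(TPM + 0.1) and 0.14 without a TPM filter, and ran from -0.29 to 0.25 with clones left out. SMAD4 reversed to 0.17 under the same 4 settings and ran from -0.15 to 0.026. With clones left out NOG ran from -1.71 to 0.46, CHRDL1 from -5.45 to 2.13 and SMURF2 from -0.16 to 0.43. The cause was not tested. No value could be had for BMP3, GDF6, ACVR2B and TGFBR3 under the 10 CPM filter, for BMP3 without 3.11, and for BMP3 and ACVR2B on filtered TPM.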
